A study of Arabidopsis thaliana with 9 samples.

Results

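The graded rise from dark to high light is a set of 93 probe sets, out of 22746 measured, whose signal was lowest on average in cells kept in the dark, intermediate in the growth light and highest in strong light. They were measured in an Arabidopsis thaliana cell suspension culture grown under continuous light of 50 microE/m2/s. The design has 3 groups of 3 arrays: control cells left at 50 microE/m2/s, dark cells kept without light for 1 h, and high light cells given 1800 microE/m2/s for 30 min. The labels describe no mutation or added agent, and the stated growth and extraction protocols are the same for all 9 samples. A suspension culture is one dividing cell population without leaves or organs, and the dark and high light treatments differ in length as well as in light. The labels call the replicates biological without saying whether they were separate cultures.

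Members were chosen by their own values. A probe set needed a control mean at least 0.4 above its dark mean, a high light mean at least 0.5 above its control mean, and all 3 high light values above all 6 others, on the log2 scale. Numerically, 102 probe sets qualified. The 9 that were left out by name were WRKY53, STZ, PUB23, CML23, AT1G77640, AT2G22880, AT2G32030, AT4G29780 and AT4G36500. Names were left out by listed gene symbols and by symbols starting WRKY, PUB, CML, MYB, NAC, UGT, CYP, CRK or RLP. A gene of these families that the annotation names only by locus could therefore remain a member. Of the 93 members, 42 have exactly 1 gene in the platform annotation, 49 have none named there and 2 have several. Because all 9 arrays and all 3 group contrasts entered the choice, the steps below are a description of the members and not a test of them.

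Strong light drives electron transport in chloroplasts beyond what carbon fixation can use, and reactive oxygen formed there is known to start signalling to the nucleus. Among the transcripts that accumulate fastest in plant cells under such stress are those of protein kinases, ubiquitin ligases, calcium-binding proteins and transcription factors, many of them shared with the responses to wounding and to microbial patterns. Light can also feed green plant cells through photosynthesis, and its loss can shift transcripts towards an energy-saving state. Whether the growth light fed this culture was not tested.

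The cultured cells had transcripts of photosynthetic cells. RCA, the Rubisco activase gene, had a control signal of 11.00 ± 0.16, PSAN of photosystem I 8.68 ± 0.21 and LHCB4.2 of the photosystem II antenna 7.47 ± 0.32 on the log2 scale (SD, n = 3). In dark and high light RCA had 10.77 ± 0.05 and 10.83 ± 0.17, PSAN 8.16 ± 0.21 and 7.97 ± 0.10, and LHCB4.2 6.39 ± 0.25 and 6.30 ± 0.11. Of these 3, limma with Benjamini-Hochberg adjustment called LHCB4.2 lower in high light than in control, where 0.0615% of all probe sets were called. The part of these levels in the members' steps was not tested. The root hair gene EXPA7 (4.28 ± 0.07) and the guard cell gene FAMA (4.22 ± 0.00) were near the lower quartile of the arrays, which lay between 4.05 and 4.13. Only 3 of 6 listed photosynthetic, 1 of 5 root hair and root epidermis and 1 of 3 guard cell genes had a named probe set. Seed, phloem and xylem markers lacked a named probe set and are not analysed here. In such bulk RNA, fewer cells with a transcript and less of it per cell cannot be told apart. Array medians were 5.55 to 5.68. RNA quality, read as the log2 difference between 3 prime and 5 prime probe sets of actin, GAPDH and ubiquitin, was 0.72 to 1.10 in control, 0.79 to 1.29 in dark and 0.96 to 1.06 in high light.

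Over the 93 members, the median step from dark to control was 0.57 on the log2 scale (1.49-fold), with a range of 0.40 to 1.39. The step from control to high light had a median of 1.61 (3.05-fold) and a range of 0.53 to 4.55. For comparison, the medians over all 22746 probe sets were 0.00 and -0.03. In all 93 members the high light step was the larger, and in 63 it was more than 2 times the dark step, but the rule asked for separate values of the high light arrays alone. The median share of the whole rise that lay between dark and control was 28.1%, and it ran from 10.4% to 49.6%. Only 7 members had steps within 0.2 of each other.

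**Figure D1:**
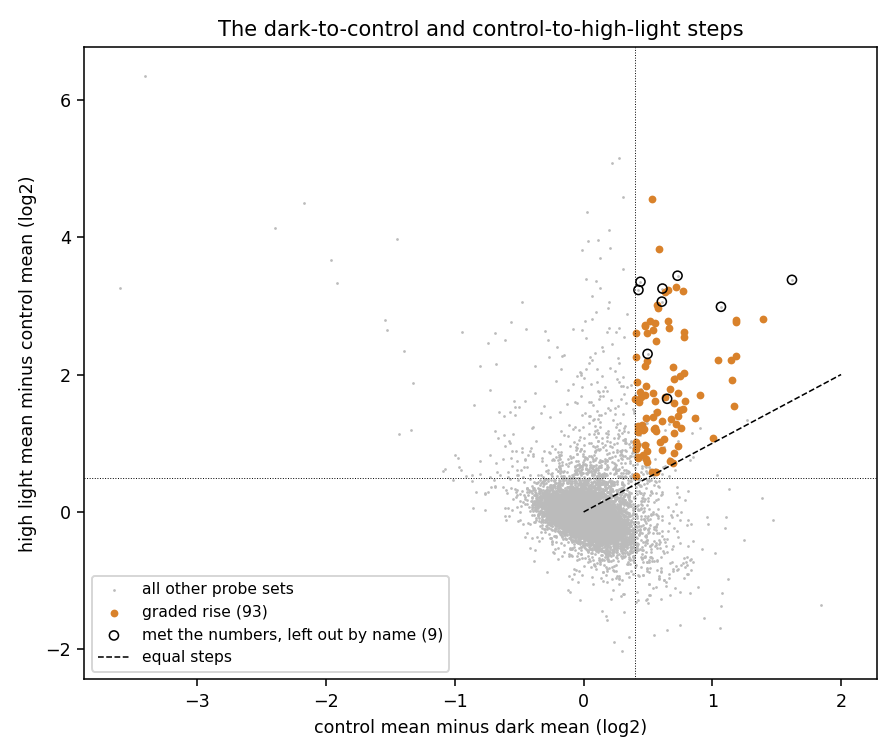
Each point is a probe set, with the control mean minus the dark mean (log2) on the horizontal axis and the high light mean minus the control mean (log2) on the vertical axis. Orange points are the 93 members, open circles the 9 probe sets left out by name, dotted lines the minimum steps of 0.4 and 0.5, and the dashed line equal steps. All members lie above the dashed line.

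The members were for the most part transcripts of moderate to high signal in control. Their control means ran from 4.54 to 10.41 with a median of 7.53, against 5.64 over all probe sets, and none lay below the lower quartile of the arrays. A control mean at least 0.4 above the dark mean is hard to reach near the floor, so the rule favours such levels. In the dark, 18 of the 93 means fell below the lowest array median, and 1 below the lowest lower quartile. Signals were not tested against background, and RMA values can be compressed near the floor.

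**Figure D2:**
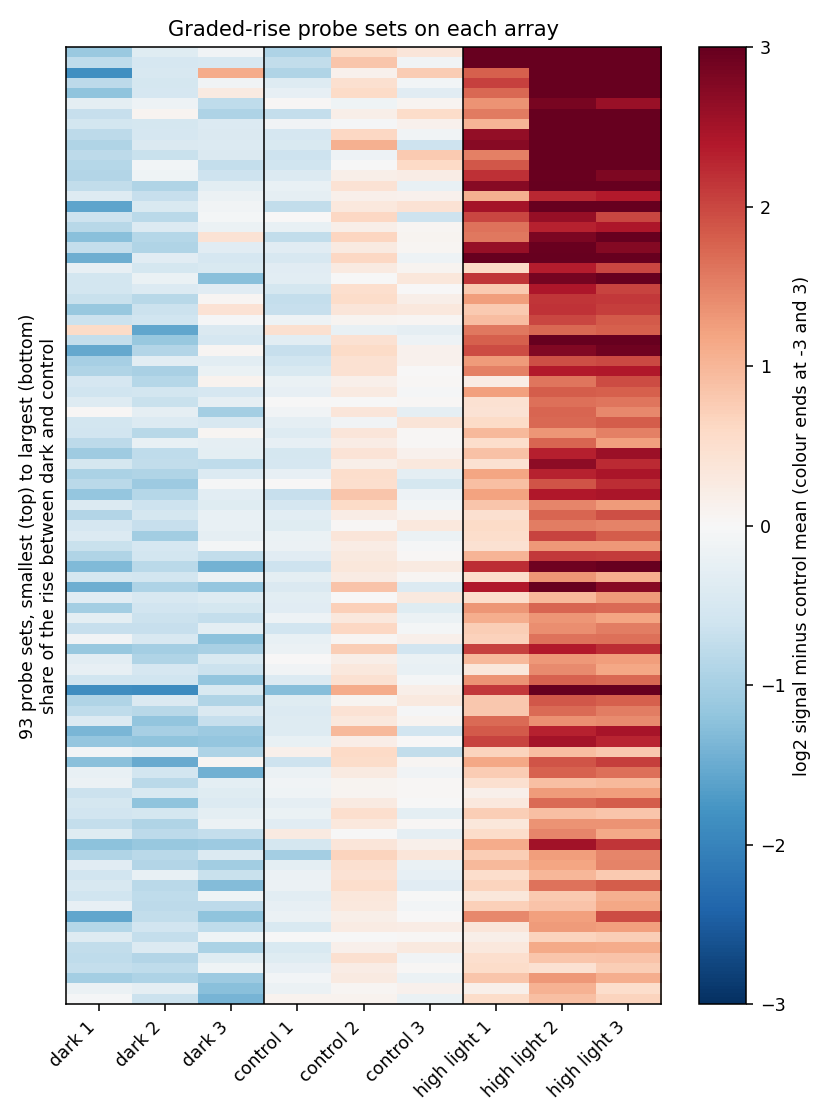
Rows are the 93 probe sets and columns the 9 arrays, and colour gives the log2 signal minus the control mean of that probe set, with stronger values drawn at the ends of the scale. Rows run from the smallest share of the rise between dark and control (10.4%, top) to the largest (49.6%, bottom). High light replicate 1 is paler than replicates 2 and 3 in most rows, and control replicate 2 is the reddest control array.

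Protein phosphorylation was the largest group of named members with a role assigned from general knowledge, with 6 kinase genes and 1 phosphatase gene. Probe sets left out by name, WRKY53, STZ, PUB23 and CML23 among them, were not counted in any group. The ranking holds only after that choice. Protein kinases pass on signals by phosphorylating other proteins, and type 2C phosphatases reverse this. AT1G70740, a protein kinase gene, read 5.75, 5.85 and 5.68 on the dark arrays, 6.68, 7.04 and 6.58 on the control arrays and 7.59, 8.08 and 7.85 on the high light arrays. None of its 3 groups overlapped. Its steps were nearly equal, at 1.01 (SE 0.15) from dark to control and 1.07 (SE 0.15) from control to high light. This made 2.01-fold and 2.11-fold.

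AT3G57760, also a protein kinase gene, had 5.78, 5.42 and 5.34 in dark, 5.91, 6.38 and 5.90 in control and 7.16, 7.39 and 7.26 in high light. The high light values formed a tight cluster, while the highest dark value was just under the lowest control value. Its steps were 0.55 and 1.21 (SE 0.16 each). The phosphatase gene AT3G62260 read 8.24, 7.66 and 8.10 in dark, 8.58, 8.73 and 8.37 in control and 9.54, 9.87 and 9.81 in high light. Here too the groups did not overlap, and high light was 2.26-fold over control (log2 1.18, SE 0.17).

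The other kinase genes varied more between arrays. ATSIK, a protein kinase gene, had the most even pair of steps among the named members, 0.57 and 0.58 (SE 0.31 each), with 49.5% of its rise between dark and control. Its dark values were 6.38, 6.29 and 5.29 and its control values 6.38, 6.61 and 6.68, so the first 2 dark arrays were close to the control arrays and dark replicate 3 was far below them. AT1G67470 had steps of 0.72 and 1.28 and AT4G25390 of 0.59 and 1.01. The Raf-like kinase gene AT3G46930 had 0.46 and 1.19. Over the 7 genes of the group the high light step had a median of 1.18 and did not pass 1.28.

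The ubiquitin ligase type, whose proteins mark other proteins for degradation, had 4 members. AT1G20823, which encodes the RING-type protein ATL80, read 5.83, 5.59 and 7.16 in dark, 6.47, 7.66 and 7.16 in control and 8.25, 8.98 and 9.16 in high light. Dark replicate 3 was level with control replicate 3, and the other dark arrays were below every control array. The steps were 0.90 and 1.70 (SE 0.46 each). AT2G42360 and AT2G42350, RING-type genes that neighbour each other in the gene table, had steps of 0.70 and 0.86 (SE 0.27 each) and of 0.41 and 0.92 (SE 0.20 each). The U-box gene AT3G49810 had 0.49 and 0.77 (SE 0.20 each).

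Transcription and RNA turnover were represented by 4 members. AT1G33760, an AP2/ERF-type transcription factor gene, read 6.79, 7.26 and 7.28 in dark, 7.24, 8.76 and 7.08 in control and 10.43, 10.84 and 10.70 in high light. Only control replicate 2 stood above the dark range, while all high light arrays were far above both groups. High light was 7.80-fold over control (log2 2.96, SE 0.40), and 16.4% of the whole rise lay between dark and control. AT4G20000, which encodes a VQ-motif protein, a class that binds WRKY transcription factors, had 5.88, 6.24 and 5.19 in dark, 6.11, 6.41 and 6.77 in control and 8.59, 9.31 and 9.43 in high light. Its dark and control values overlapped and its high light step was 2.68 (SE 0.31).

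AT1G27820, a gene for a CAF1-type enzyme that shortens the poly(A) tails of messenger RNA, had nearly identical control values of 5.68, 5.69 and 5.73. Its dark values (5.32, 5.04 and 5.44) were all lower and its high light values (6.15, 7.36 and 7.31) all higher. Its probe set has a suffix that marks probes shared with similar genes, so the signal may come from more than 1 of them. AT3G52800, an A20/AN1 zinc finger gene, had steps of 0.43 and 0.78 (SE 0.18 each) at a high control signal of 10.17 ± 0.11 (SD, n = 3).

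The calcium and lipid group had 3 members with unlike sizes. DLAH, a DAD1-like acylhydrolase gene of the lipase type, read 4.91, 5.04 and 5.27 in dark, 5.09, 5.55 and 6.48 in control and 7.22, 9.85 and 9.66 in high light. The high light arrays were split, with replicate 1 more than 2 log2 units below the others. The mean high light step was 3.20 (SE 0.65), or 9.22-fold, beside a dark step of 0.63 (SE 0.65). AT3G25600, an EF-hand calcium-binding protein gene, had the steps 0.67 and 0.74 (SE 0.22 each) at a control signal of 10.25 ± 0.43 (SD, n = 3). AT4G34150, which encodes a protein with a C2 domain, a calcium-dependent lipid-binding fold, had 0.47 and 0.98 (SE 0.27 each).

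**Figure D3:**
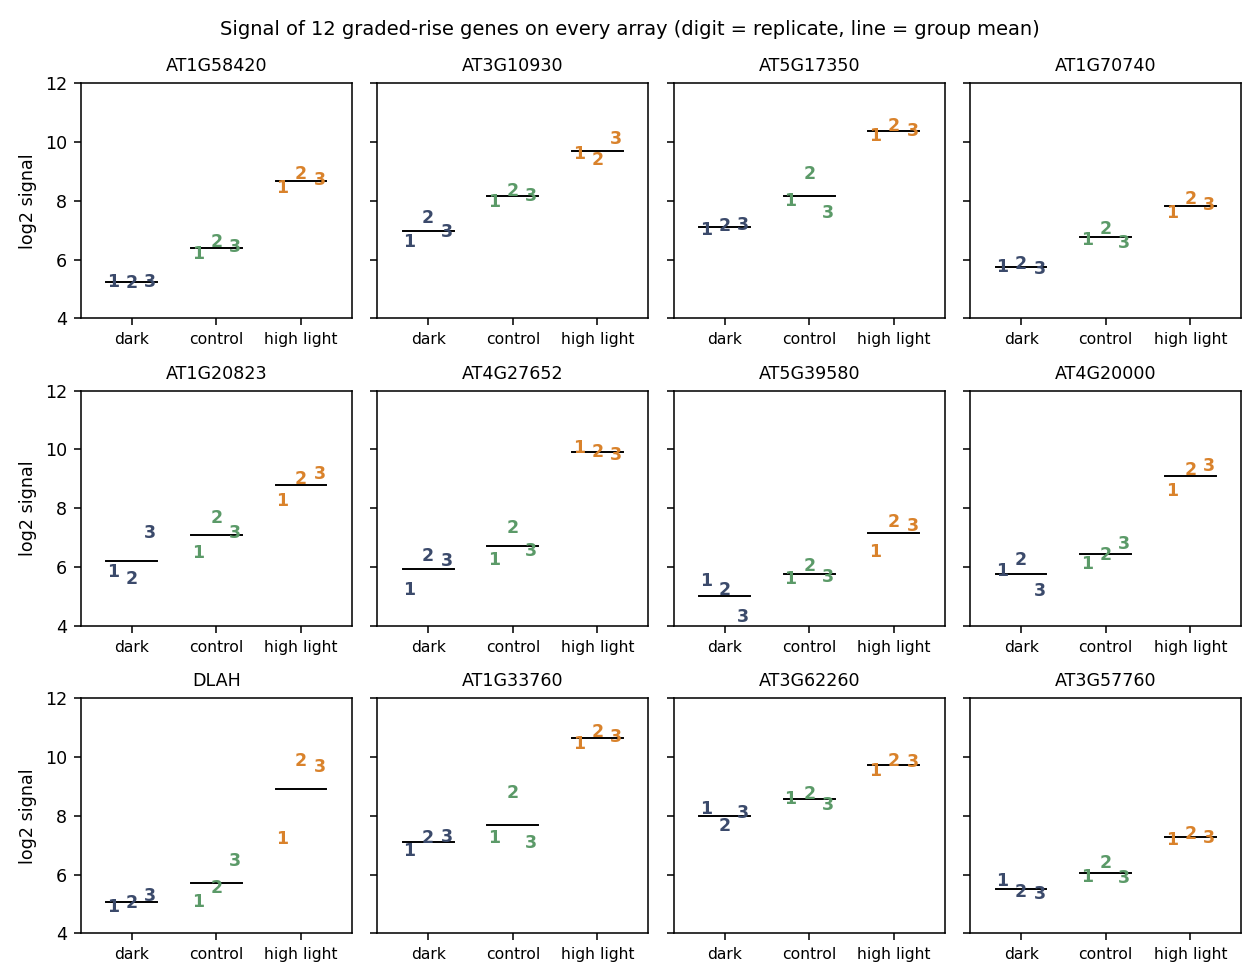
Log2 signal (vertical axis) of 12 named members in the dark, control and high light groups (horizontal axis), where each digit is the value of that replicate and each line the group mean (n = 3). AT1G58420, AT3G10930, AT5G17350, AT1G70740, AT3G62260 and AT3G57760 have 3 separate groups, and AT5G39580 does too. In the other genes dark and control overlap.

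Secreted and cell wall proteins made up 5 members. AT3G10930, which encodes a small IDA-like signalling peptide, read 6.60, 7.41 and 6.94 in dark, 7.97, 8.34 and 8.16 in control and 9.59, 9.39 and 10.10 in high light. The 3 groups were clearly apart, with steps of 1.17 (2.25-fold) and 1.54 (2.91-fold) and an SE of 0.24 each. AT5G39580, a class III peroxidase gene whose products act on the cell wall, read 5.54, 5.21 and 4.32 in dark, 5.59, 6.03 and 5.65 in control and 6.52, 7.53 and 7.41 in high light. Dark replicate 1 lay just below the lowest control value.

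Among the others of this group, the proline-rich protein gene AT5G12880 had steps of 0.75 and 1.22 (SE 0.25 each). The glycosyltransferase family 61 gene AT2G41640 had 0.48 and 1.84 (SE 0.38 each). AT4G20860, a berberine bridge enzyme-like oxidase gene, had the smallest high light step of all members, 0.53 (SE 0.18), beside a dark step of 0.41. Its control arrays hardly differed, at 9.32, 9.32 and 9.38, and the 3 groups did not overlap.

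Among the members, 4 belong to families known from plant immunity, and in each of them dark and control values overlapped. AT3G55840, a homologue of the sugar beet nematode resistance gene Hs1pro-1, had 5.17, 5.49 and 6.04 in dark, 5.65, 7.18 and 6.20 in control and 7.56, 8.75 and 8.79 in high light. In each group replicate 1 was the lowest. AT2G24600, an ankyrin-repeat protein gene, had steps of 0.44 and 1.74 (SE 0.40 each), and AT1G63750, an intracellular receptor-type gene of the TIR-NBS-LRR class, 0.42 and 1.26 (SE 0.42 each). AT2G27080, which encodes an NDR1/HIN1-like membrane protein, had 0.42 and 0.80 (SE 0.33 each) at a control signal of 10.41 ± 0.68 (SD, n = 3).

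A further 3 genes for enzymes or metal-binding proteins had larger high light steps beside small dark steps. The methyltransferase gene AT1G55450 had 0.52 and 2.78 (SE 0.53 each) and AT5G52750, a gene with a heavy-metal-associated domain, 0.54 and 1.74 (SE 0.31 each). The acetyltransferase-family gene AT2G32020 read 8.29, 6.15 and 7.29 in dark, 8.20, 7.51 and 7.45 in control and 9.30, 9.44 and 9.51 in high light. Dark replicate 1 was above every control array, so the dark step of 0.47 (SE 0.46) was about the size of its error. This gene lies next to AT2G32030 in the gene table, 1 of the 9 left out by name, whose steps were 0.61 and 3.25.

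The 12 named members given here without a role include the clearest graded pattern. AT1G58420 read 5.25, 5.20 and 5.24 in dark, 6.19, 6.61 and 6.43 in control and 8.45, 8.91 and 8.69 in high light. The spread within each group was small beside the distances between the groups. Its steps were 1.18 (2.27-fold) and 2.27 (4.83-fold), with an SE of 0.14 each, and high light was 10.9-fold over dark. AT5G17350 had 7.01, 7.14 and 7.18 in dark, 7.98, 8.90 and 7.58 in control and 10.20, 10.54 and 10.37 in high light. It was tight in dark and in high light and wide in control, with steps of 1.05 and 2.21 (SE 0.28 each).

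AT4G27652 had 5.23, 6.38 and 6.21 in dark, 6.24, 7.34 and 6.55 in control and 10.06, 9.92 and 9.80 in high light. Dark and control overlapped, and high light was 9.28-fold over control, the steepest high light step among the named members (log2 3.21, SE 0.34). AT1G23710 and AR781 had high light steps of 2.62 (SE 0.35) and 2.75 (SE 0.42) beside dark steps of 0.78 and 0.55. AT1G18740, AT5G44060, AT5G38700 and AT1G15010 had high light steps of 1.98, 1.93, 1.67 and 1.15. Their dark steps were 0.75, 0.70, 0.64 and 0.70 (SE of each step 0.36, 0.44, 0.40 and 0.40). Dark and control overlapped in all of these but AT1G18740. AT1G49840, with 0.53 and 0.58 (SE 0.19 each), was close to even, while AT2G37880 had 0.41 and 2.26 (SE 0.35 each). AT4G33985 had 0.46 and 0.82 (SE 0.19 each).

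The 49 members with no gene named had a similar range, with medians of 0.57 and 1.64 for the dark and high light steps. Both extremes of the members were among them, a dark step of 1.39 (SE 0.63) in 1 probe set and a high light step of 4.55 (SE 0.51), or 23.4-fold, in another.

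The rule limited control and dark by their means alone. In 40 of the 93 members all 3 control arrays lay above all 3 dark arrays, where 3.45% of all probe sets did so, and in 53 the values overlapped. Dark replicate 3 was above the lowest control array in 38 members, dark replicate 2 in 18 and dark replicate 1 in 11. Compared by replicate number, all 3 dark arrays were below the control array of the same number in 73 members. For numbers 1, 2 and 3 singly, control was above dark in 84, 93 and 82 members, against 47.4%, 47.2% and 52.1% of all probe sets. The rule asked for a lower dark mean, which favours such counts. The share of all probe sets was not computed for the 73 or for dark arrays above the lowest control array. The median step from dark to control was 1.01 between the arrays numbered 2 but 0.37 between those numbered 1 and 0.41 between those numbered 3. Without control replicate 2, the array that was the highest control in 71 members, 66 probe sets met the rule and 55 of the 93 were among them.

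**Figure D4:**
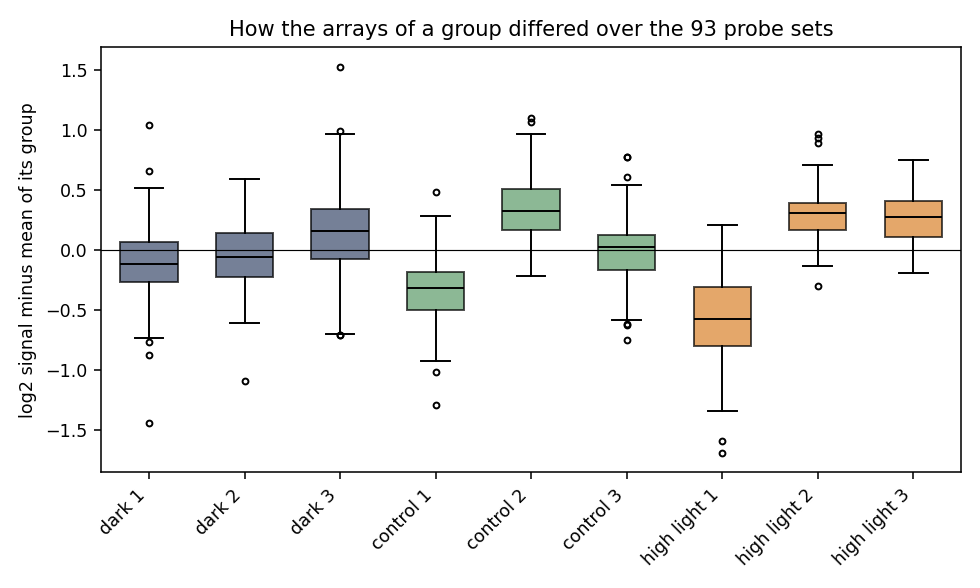
For each array (horizontal axis), the boxes show the quartiles over the 93 members of the log2 signal minus the mean of its group (vertical axis), with the median as a line, whiskers to 1.5 box lengths and circles beyond. High light replicate 1 and control replicate 1 lie below their groups, with medians of -0.57 and -0.32, and control replicate 2 lies above, with a median of 0.32.

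In high light and control, most members shared an order of the arrays, which the rule did not set directly. High light replicate 1 was the lowest high light array in 89 of the 93, against 37.3% of all probe sets, and its median distance below the mean of replicates 2 and 3 was 0.86 on the log2 scale. Replicates 2 and 3 differed by a median of 0.16. In 29 members the gap between replicate 1 and the lower of the others was at least 1. Control replicate 1 was the lowest control array in 72 members, against 35.0% of all probe sets, and dark replicate 3 the highest dark array in 54, also against 35.0%. The lowest dark array was replicate 1 in 40 members, replicate 2 in 33 and replicate 3 in 20.

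The same order was seen in 262 other probe sets with a high light step of at least 0.5, all high light values on top and a dark step under 0.4. High light replicate 1 was lowest in 84.7% of these, with a median gap of 0.54. Control replicate 2 was highest in 61.1%, against 76.3% of the members, and the difference was not tested. Their median high light step was 1.07. On the RNA quality measure, control replicates 1, 2 and 3 had 0.72, 0.99 and 1.10. The dark arrays had 0.79, 0.98 and 1.29 and the high light arrays 0.99, 0.96 and 1.06. The part of RNA quality in the order of the arrays was not tested.

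Counted in the limma fit over all 22746 probe sets with Benjamini-Hochberg adjustment, 28 of the 93 members were called higher in high light than in control at an adjusted p under 0.05, where 0.44% of all probe sets were. The 12 named ones were AT1G58420, AT3G10930, AT5G17350, AT1G70740, AT1G23710, AT4G27652, AT4G20000, AT1G33760, AT3G62260, AR781, AT3G57760 and AT2G37880. Pairing the arrays by their number, as a block in the fit, gave a count of 61, where 1.02% of all probe sets were called. The fit without high light replicate 1 called 94 of the 159 probe sets that then met the rule. Without high light replicate 2 or 3 it called 8 of 92 and 11 of 94, and without control replicate 2 or 3 it called 17 of 66 and 13 of 104. The share of all probe sets called was not computed for the fits without an array, so these counts cannot be set beside it.

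Against dark, 72 of the 93 were called higher in high light, where 0.884% of all probe sets were, and 32 of them were named. Without high light replicate 1 the count was 139 of 159, and without high light replicate 2 or 3 it was 28 of 92 and 28 of 94. It was 37 and 34 of 88 without dark replicate 1 or 2, and 39 of 66 without control replicate 2. For these fits too the share of all probe sets called was not computed. In dark against control limma called 0 of the 93 lower, where 0.0% of all probe sets were called. With the replicate block it also called 0 of the 93, and the share of all probe sets is not given for that fit. With array weights limma called 1, AT1G58420, where 0.0176% of all probe sets were called. At an unadjusted p under 0.05, 32 members were lower in the dark, where 1.77% of all probe sets were. As the rule used these contrasts, the counts describe how large the chosen steps were beside the spread, and no more. The comparisons also share arrays.

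Near the dark limit of the rule the values ran on without a gap. Just inside the dark limit were AT2G42350 (0.41), AT2G37880 (0.41) and AT4G20860 (0.41), and just outside it AT2G01300, AT5G19240 and AT2G44500 (0.40 each when rounded). Within 0.1 of this limit lay 33 probe sets inside and 41 outside that met the other conditions. The high light limit was sparsely filled, with 3 inside and 4 outside within 0.1. The nearest with exactly 1 named gene were AT4G20860 (0.53), ATSIK (0.58) and AT1G49840 (0.58) inside, and AT3G01430 (0.47), AT5G05140 (0.47) and AT2G41410 (0.30) outside, and a probe set with no gene named lay at 0.45. A further 48 probe sets met both steps but had a high light array at or below another array. AT5G58120, AT1G71450 and AT1G04490 missed by 0.02 or less, and AT4G34150, ATSIK and AT3G25600 passed by 0.02 to 0.04.

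Other stress signalling genes could be set beside the members only thinly. Of 106 listed genes of 11 groups, 7 had a named probe set. AT1G20823 was the 1 that was a member, and it was the 1 measured of 5 listed RING ligases of the ATL family. The RING-type members AT2G42360 and AT2G42350 were not on the list. In high light against control limma called 2 of the 7 higher and 0 lower, where 0.44% and 0.0615% of all probe sets were called. In dark against control it called 0 either way, where 0.0% were. Without adjustment, at a p under 0.05, high light against control had 4 of the 7 higher and 0 lower, where 3.87% and 4.92% of all probe sets were. Dark against control had 0 higher and 1, BIK1, lower, where 0.994% and 1.77% were. Of those called, STZ, a zinc finger repressor, met the numbers of the rule and was left out by name. CML37, a calmodulin-like calcium sensor gene, was called with a high light step of 3.27 (SE 0.36) and a dark step under the limit, with dark and control means of 3.90 and 4.03. CML38, of the same family, had a higher mean in dark (7.21) than in control (6.73).

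BIK1, a kinase gene of early immune signalling, was lower on average in high light (9.78) than in control (10.08), with a dark mean of 9.63. EFR, the receptor gene for a bacterial elongation factor peptide, had means of 4.46, 4.42 and 4.49 in dark, control and high light. HYH, a light-signalling transcription factor gene, had 3.74, 3.78 and 3.88, below the lower quartile of every array. The listed AP2/ERF and CBF, jasmonate, secretion, deadenylation and transporter genes lacked a named probe set here. The median high light step over the 7 was 1.70, against -0.03 over all probe sets.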

How the data were processed

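Total RNA was measured on 9 ATH1 arrays. The authors deposited 1 value per probe set and array, read here as log2 signal; the submitters' processing notes name RMA and affy, without versions; the log base and settings are not given in the sources used here. RMA equalises the quantiles between arrays. Of 22810 probe sets, 64 are Affymetrix controls. The platform annotation names 1 gene for 13513 of the other 22746, several for 503 and none for 8730; all 42 named members were matched to the RefSeq gene table. From the deposited values, group means and steps were computed, and limma 3.58.1 in R 4.3.3 (a mean per group over 9 arrays, eBayes, 6 residual and 2.55 prior degrees of freedom, Benjamini-Hochberg, tested on simulated data) gave standard errors and calls at an adjusted p under 0.05. The p-values reflect only the differences among these samples, which may be technical, and the number of arrays limits the precision. Members and gene lists were chosen with earlier results of these data known. Of 106 listed genes, 103 paired with their symbol. The naming rule took the first 30 named members by their smaller step, list members and the genes nearest the limits; the other named members, roles, role groups and the comparison set of 262 were added after values were seen. Same-numbered high light and control arrays deviated together (correlations 0.261 to 0.515). For dark and control the correlations were 0.0124 to 0.632, and for high light and dark -0.0336 to 0.485. In each case replicate 2 had the lowest. Arrays of different number were not compared, so whether the numbers pair the arrays was not tested. Alternatives changed normalisation, arrays, probe sets, rule limits, the variance model, array weights, pairing and the threshold.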

Additional observations from a re-analysis of the deposited data

How the results depend on the processing

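The members were 93 with the rule as given, 143 with both steps at least 0.3, 29 with both at least 0.7 and 40 where all control values were also above all dark values. Leaving out 1 array at a time gave 66 to 159 members, 8 to 94 called in high light against control, 28 to 139 in high light against dark and 0 in dark against control. The share of all probe sets called was not computed for the fits without an array. All 93 were still members without high light replicate 1, while 55 to 91 were without each of the other arrays. That replicate was the lowest high light array in 89 of the 93, so leaving it out favours keeping the members. Median centring kept 85 and quantile normalisation 83. In high light against control, the replicate block called 61 of the 93 (1.02% of all probe sets), array weights 61 (1.24%) and an adjusted p under 0.01 left 13 (0.242%). In high light against dark the stricter threshold left 32 (0.369%). Array weights called 1 member, AT1G58420, lower in dark against control (adjusted p = 0.0203, with 0.0176% of all probe sets called), where no other alternative called any. The replicate block moved no other count by more than 1.5 times. The remaining alternatives, which were both normalisations, the probe set filters and an intensity trend with robust estimation, stayed within 1.5 times. The number of arrays and the untested signal over background limit what can be said of the dark step.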

Other observations

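No probe set showed the mirror of this pattern. With the same limits turned round, 0 of 22746 had a dark mean at least 0.4 above control, a high light mean at least 0.5 below control and all high light values below all others, against 102 in the rising direction before names were left out. The mirrored search was added after the data were seen.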
